A study of Homo sapiens with 14 samples.

Results

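The genes of core-binding factor (RUNX) and of lymphoid ETS family transcription factors were examined in the accessible chromatin of MM.1S and RPMI8226, 2 established lines of human multiple myeloma (MM), a cancer of plasma cells. There were 10, RUNX1, RUNX2, RUNX3, CBFB, ETS1, ETS2, FLI1, ELF1, ETV6 and ERG, of 20033 annotated protein-coding genes. They were chosen by name, and their peaks were all reference peaks that overlapped the gene body or the 100 kb on either side of it. This gave 203 of the 72802 peaks of the MM.1S list and 241 of the 79969 peaks of the RPMI8226 list.

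The peaks came from Omni-ATAC, in which a transposase cuts open chromatin and tags the cut ends for sequencing. MM cells were grown alone (MONO) or in coculture with HS5, a human bone marrow stromal cell line. In coculture they sat in the upper transwell (TSW), reached by soluble factors but not by stromal cells, or in the lower chamber (CO). In the lower chamber they adhere to the stromal cells. By the study's account exosomes can also cross the transwell membrane. MM.1S had 3 MONO, 3 TSW and 3 CO libraries, and RPMI8226 had 1 MONO, 2 TSW and 2 CO libraries. By the study's methods the MM cells of the lower chamber were sorted as CD90-CD38+, a gate against stromal cells that by its account left few of them. Nothing used here says that libraries of a group came from separate cultures. The authors pooled all libraries of a line into 1 list. Each peak carries only a whole number, read here as its support, the count of libraries in which it was called. A peak needed a support of at least 3, and the highest support was 9 in MM.1S and 5 in RPMI8226. Read counts are not among the values used, so the culture conditions were not compared. By the study's own record of sequencing depth a MONO library of MM.1S was far shallower than the others of that line, and the lists do not say which peaks it lacks. By the same record every RPMI8226 library was shallower than each of the other MM.1S libraries. There is no replicate of a list, and no difference below has a test. Intervals are 95% Wilson intervals, which cover counting error alone, and peaks are not replicates.

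RUNX1, RUNX2 and RUNX3 encode the alpha subunits of core-binding factor, which bind DNA through the Runt domain, and CBFB encodes the beta subunit, which does not contact DNA but stabilises that binding. Mammalian RUNX genes are known for a pair of promoters, a distal P1 and a proximal P2, that give proteins with different first residues. In blood, RUNX1 is needed for the emergence of stem cells, RUNX3 acts in T and NK cells and other lymphocytes, and RUNX2 is best known as the regulator of bone formation. ETS factors bind a GGAA core. ETS1 is a lymphoid activator that restrains plasma cell differentiation, ELF1 is widely expressed in lymphoid cells, FLI1 and ERG act in blood and endothelial cells, ETS2 is broadly expressed, and ETV6 is a repressor.

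The promoters of these genes ranged from CpG-poor to CpG-rich, and sequences from both ends of that range are shown because the presence of a peak differed among them. A promoter here is a group of annotated start sites (GENCODE release 44, basic protein-coding transcripts) that lie within 1000 bp of each other, numbered along the direction of transcription. It counted as open when a reference peak overlapped the 2500 bp on either side. The MANE start is that of the transcript chosen as the standard for the gene. The first set holds the 250 bases before the first annotated exon of promoter 1 of the RUNX genes, 5′ to 3′ on the gene's strand in build hg38. Capitals mark matches to RUNX strings (TGTGGT or TGCGGT), ETS strings (CCGGAA or CAGGAA) and AP-1 strings (TGACTCA or TGAGTCA, the site of JUN and FOS proteins), each sought on both strands.
RUNX1 promoter 1, minus strand, chr21:35049345-35049594: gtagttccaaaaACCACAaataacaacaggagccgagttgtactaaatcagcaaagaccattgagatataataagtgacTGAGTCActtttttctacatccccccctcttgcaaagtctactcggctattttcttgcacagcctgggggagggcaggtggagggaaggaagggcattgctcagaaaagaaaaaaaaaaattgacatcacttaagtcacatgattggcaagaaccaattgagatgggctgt
RUNX2 promoter 1, plus strand, chr6:45327907-45328156: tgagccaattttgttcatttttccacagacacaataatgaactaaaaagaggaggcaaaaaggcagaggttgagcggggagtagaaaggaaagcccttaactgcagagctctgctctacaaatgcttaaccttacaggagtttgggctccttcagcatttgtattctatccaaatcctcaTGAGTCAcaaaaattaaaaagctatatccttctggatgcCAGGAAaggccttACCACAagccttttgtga
RUNX3 promoter 1, minus strand, chr1:24965122-24965371: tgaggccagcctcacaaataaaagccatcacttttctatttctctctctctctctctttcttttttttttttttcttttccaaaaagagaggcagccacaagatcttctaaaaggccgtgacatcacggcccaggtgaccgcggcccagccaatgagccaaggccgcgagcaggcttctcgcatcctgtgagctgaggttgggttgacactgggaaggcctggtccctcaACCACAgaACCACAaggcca

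RUNX3 promoter 1 held 2 RUNX strings that began 20 and 12 bases before the first exon, and RUNX2 promoter 1 held 1 that began 18 bases before it. In RUNX1 promoter 1 the RUNX string began 238 bases before the exon. RUNX strings lay in the upstream 250 bases of 5 of 21 windows of these genes (23.8%) and of 16.3% of the 27137 promoters of all protein-coding genes. The window count is 21 for 22 promoters because RUNX1 promoters 2 and 3 have the same upstream bases. ETS strings lay in 4 of the 21 windows (19.0%, against 33.5% of all promoters) and AP-1 strings in 3 (14.3%, against 3.66%), which were promoter 1 of RUNX1, of RUNX2 and of ELF1. A match is a description of the letters and shows no binding.

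The RUNX1, RUNX2 and RUNX3 spans above held 2, 1 and 7 CpG. The other set holds the same span at CpG-rich promoters, with every CpG in capitals, 31, 23, 33, 41 and 44 in the order given. The span of RUNX2 promoter 2 overlaps 220 bases of a long non-coding RNA exon, and that of ETS1 promoter 2 holds the microRNA gene MIR6090.
RUNX1 promoter 2, minus strand, chr21:34888691-34888940: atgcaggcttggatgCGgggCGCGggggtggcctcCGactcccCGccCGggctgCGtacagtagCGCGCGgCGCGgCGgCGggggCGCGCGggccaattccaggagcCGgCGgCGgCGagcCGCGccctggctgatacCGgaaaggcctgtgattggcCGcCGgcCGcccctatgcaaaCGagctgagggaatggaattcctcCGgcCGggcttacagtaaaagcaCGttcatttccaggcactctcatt
RUNX2 promoter 2, plus strand, chr6:45421786-45422035: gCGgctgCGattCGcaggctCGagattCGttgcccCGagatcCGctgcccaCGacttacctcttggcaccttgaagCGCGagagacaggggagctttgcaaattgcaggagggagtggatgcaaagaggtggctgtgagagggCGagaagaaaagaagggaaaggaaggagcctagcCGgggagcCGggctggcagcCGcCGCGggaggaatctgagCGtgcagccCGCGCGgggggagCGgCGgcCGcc
RUNX3 promoter 2, minus strand, chr1:24930277-24930526: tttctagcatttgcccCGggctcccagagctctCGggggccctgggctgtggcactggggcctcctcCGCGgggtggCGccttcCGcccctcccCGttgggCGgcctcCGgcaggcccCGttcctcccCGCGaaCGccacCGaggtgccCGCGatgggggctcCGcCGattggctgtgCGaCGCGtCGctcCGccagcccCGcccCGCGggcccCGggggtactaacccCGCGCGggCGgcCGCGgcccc
ETS1 promoter 2, minus strand, chr11:128522311-128522560: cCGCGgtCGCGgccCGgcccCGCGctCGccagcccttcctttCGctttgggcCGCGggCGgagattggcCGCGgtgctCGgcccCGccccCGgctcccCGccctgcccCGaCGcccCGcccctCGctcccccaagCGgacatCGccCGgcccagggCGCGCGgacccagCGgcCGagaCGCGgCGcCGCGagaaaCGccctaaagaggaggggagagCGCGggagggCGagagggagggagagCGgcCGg
ERG promoter 2, minus strand, chr21:38660668-38660917: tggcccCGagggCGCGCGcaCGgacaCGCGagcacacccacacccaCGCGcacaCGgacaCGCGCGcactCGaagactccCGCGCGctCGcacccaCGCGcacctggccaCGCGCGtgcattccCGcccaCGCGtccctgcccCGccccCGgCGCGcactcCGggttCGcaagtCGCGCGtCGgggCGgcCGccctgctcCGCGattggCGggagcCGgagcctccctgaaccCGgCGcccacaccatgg

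Of the 22 promoters, 14 were open in MM.1S and 14 in RPMI8226, and 13 of them were open in both, each through a peak called in every library. Across all protein-coding genes, 63.2% of promoters were open in MM.1S and 57.6% in RPMI8226, and 55.6% and 52.5% were open in every library. By gene, 9 of 10 had an open promoter in each line, against 72.5% and 66.7% of all protein-coding genes, and ERG was the gene without one. CpG content was set beside these calls after the sequences had been seen. Among the 9 promoters with 0 to 4 CpG in the upstream 250 bases, 3 were open in each line, against 31.2% of such promoters genome-wide in MM.1S and 29.8% in RPMI8226. Of 2 promoters with 5 to 9 CpG, 1 was open in MM.1S (against 55.8%) and 2 in RPMI8226 (48.7%), and of 3 with 10 to 19 CpG, 3 were open in MM.1S (80.4%) and 2 in RPMI8226 (72.9%). Among the 8 with 20 or more, 7 were open in each line, against 88.3% and 80.5%. The exception was ERG promoter 2, with a GC content of 77.2% and the most CpG of the sequences above. RUNX1 promoter 1 was open with 2 CpG, whereas RUNX2 promoter 1, with 1 CpG, was not. RUNX1 promoters 2 and 3, both among the 8, have the same upstream bases and were open through the same peaks. ETS2 promoter 2, among the 3 open promoters with 0 to 4 CpG, was open only through the peak of ETS2 promoter 1.

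**Figure D1:**
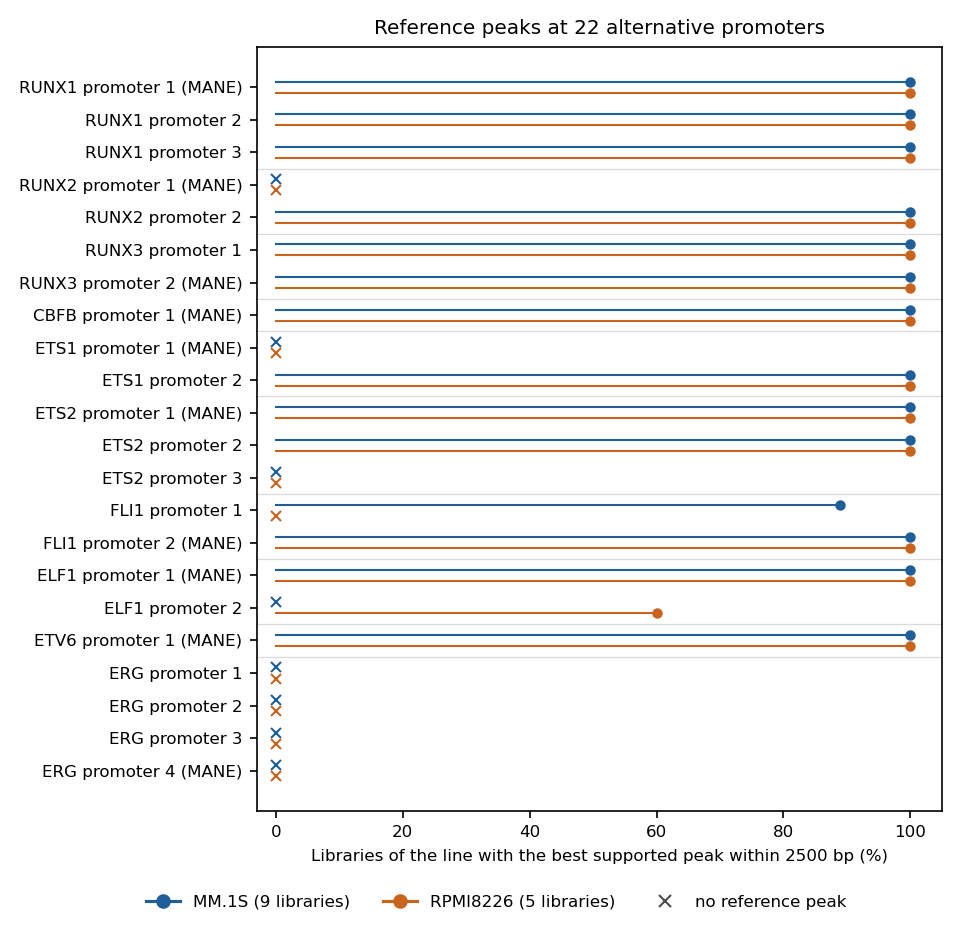
Best supported reference peak within 2500 bp of each of the 22 promoters (rows), as a percentage of the libraries of its line on the x axis; crosses mark promoters with no reference peak. In both lines 13 promoters reach 100%; the others with a peak are FLI1 promoter 1 (MM.1S only, 8 of 9 libraries) and ELF1 promoter 2 (RPMI8226 only, 3 of 5 libraries), and ERG has crosses throughout.

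Over the 10 genes, 144 of the 203 MM.1S peaks (70.9%, interval 64.3 to 76.7) overlapped a peak of the RPMI8226 list, where the share over all MM.1S peaks was 64.6%. In the other direction 153 of 241 RPMI8226 peaks were shared (63.5%, 57.2 to 69.3), where the share over the list was 62.0%. In MM.1S, 124 peaks were called in every library (61.1%, 54.2 to 67.5), against 52.0% of the list, and in RPMI8226 158 were (65.6%, 59.4 to 71.3), against 64.1%. A support above 6 in MM.1S cannot be reached without a library of each culture condition, and 166 of the 203 peaks had one (81.8%, against 72.3%). A support of 3 could come from a single condition in MM.1S, and 15 peaks had it (7.39%, against 8.64%), whereas in RPMI8226, where 35 peaks had it (14.5%, against 15.3%), no condition has 3 libraries. Peaks away from all annotated starts, here called distal, made up 141 of the MM.1S and 170 of the RPMI8226 peaks (69.5% and 70.5%, against 60.8% and 64.0%). Of the distal peaks 65.2% were shared in MM.1S (57.1 to 72.6, against 60.0%) and 55.3% in RPMI8226 (47.8 to 62.6, against 53.7%). Among the 59 peaks found in MM.1S alone 25 were in every library, and among the 88 found in RPMI8226 alone 44 were, shares of 42.4% and 50.0% against 27.5% and 43.6% of all line-only peaks.

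Each of the RUNX and CBFB genes had more peaks in RPMI8226, whereas the ETS genes were divided. ETS2 and ELF1 also had more in RPMI8226, ETV6 had equal numbers, and ETS1, FLI1 and ERG had more in MM.1S. Near RUNX1, RUNX2, RUNX3 and CBFB there were 107 MM.1S peaks, of which 78.5% were shared (69.8 to 85.2), and 149 RPMI8226 peaks, of which 61.1% were shared (53.1 to 68.5). Near the 6 ETS genes there were 96 MM.1S peaks (62.5% shared, 52.5 to 71.5) and 92 RPMI8226 peaks (67.4% shared, 57.3 to 76.1). The RPMI8226 list was also the longer list over the genome, with narrower peaks. Peaks matched one to one in 137 cases, and in 112 of these (81.8%) the MM.1S one was wider, with medians of 610 bp and 443 bp. The part of the lower sequencing depth of RPMI8226 in these widths and counts was not tested. Joining overlapping peaks of both lists gave the regions in the plot of accessible regions by gene.

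**Figure D2:**
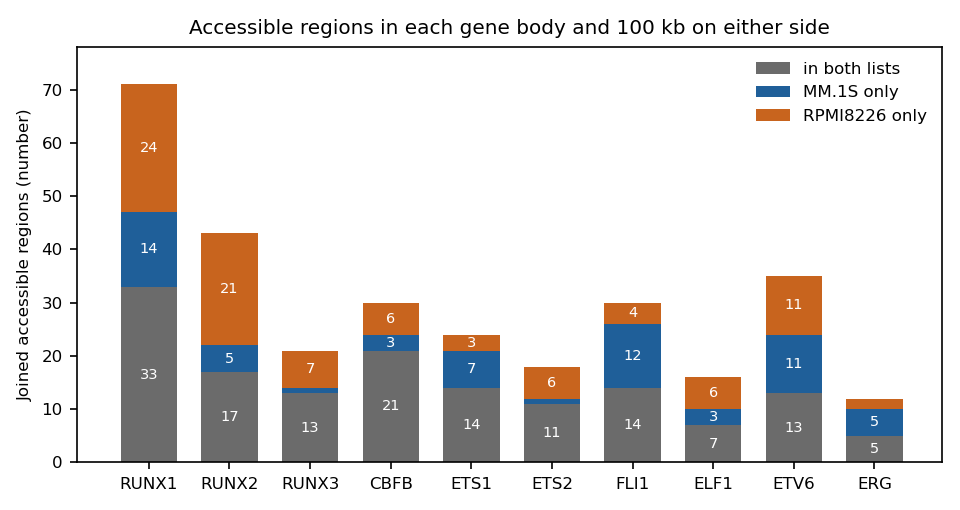
Number of joined accessible regions (y axis) in the body of each gene and the 100 kb on either side (x axis), split by whether the region had a peak in both lists or in 1 of them. RPMI8226-only regions outnumber MM.1S-only regions by 24 to 14 at RUNX1 and 21 to 5 at RUNX2, and the order turns at FLI1, with 4 against 12.

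Windows differed in length and in their neighbours. The median density over the 10 genes was 5.33 peaks per 100 kb in MM.1S and 5.60 in RPMI8226, where the medians over all protein-coding genes were 4.06 and 4.36. CBFB had the densest window, with 8.82 and 10.3 peaks per 100 kb, the percentiles 88.7 and 94.1 of all genes. ERG had the sparsest, with 2.08 and 1.45, the percentiles 21.2 and 12.5. The windows of ETS1 and FLI1 overlap, as do those of ERG and ETS2, and peaks in both windows were counted once in the totals. A peak in a window may act on another gene that lies there. The 100 kb limit is arbitrary: the outermost 10 kb inside it held 9 peaks in MM.1S (7 shared) and 16 in RPMI8226 (7 shared), and the 10 kb just beyond it held 10 (7 shared) and 8 (6 shared).

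RUNX1 had 47 peaks in MM.1S and 61 in RPMI8226. The annotated gene body spans 1217 kb because some transcripts begin far upstream, and 955 kb of it precede promoter 1. Promoter 1, the MANE start, lay under a 1251 bp peak with a support of 9 in MM.1S and a 699 bp peak with a support of 5 in RPMI8226. Promoter 2, 160612 bp downstream, lay under a 2451 bp peak in all 9 MM.1S libraries, and in RPMI8226 it lay under a 601 bp peak in all 5 libraries, 1 of 3 peaks within the window. Promoter 3 begins 1507 bp further on and was open through those same peaks. Both RUNX1 promoters of the pair were therefore called in every library of each line.

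Between promoters 1 and 3 of RUNX1, RPMI8226 had 13 peaks, 12 of them in every library, and MM.1S had 7, 6 of them in every library. The 2 widest shared distal RPMI8226 peaks of the gene were both intronic. The first, 841 bp wide, lay 22.3 kb downstream of promoter 1 (chr21:35026617-35027457) and overlapped a 906 bp MM.1S peak with a support of 9. The other, 844 bp wide, lay 183 kb downstream (chr21:34865449-34866292) and overlapped a 1117 bp MM.1S peak with a support of 9. The first intron of RUNX1 is known to hold a blood enhancer downstream of promoter 1, and whether the peak at 22.3 kb is that element was not tested. Downstream of promoter 3 the order turned, with 10 MM.1S and 6 RPMI8226 peaks. The widest shared MM.1S peak there spanned 1630 bp with a support of 9 (chr21:34844726-34846355), and the RPMI8226 peak inside it spanned 304 bp with a support of 5.

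Upstream of RUNX1 promoter 1 MM.1S had 30 peaks (23 shared) and RPMI8226 had 42 (25 shared). A shared peak 178 kb upstream spanned 1249 bp in MM.1S (chr21:35226993-35228241) and 834 bp in RPMI8226. Close to it, 5 consecutive RPMI8226 peaks had no MM.1S partner (chr21:35236185-35265932), with supports of 5, 4, 5, 5 and 5. The longest such run in MM.1S held 4 peaks over 185 kb, with supports of 9, 4, 9 and 9. The widest MM.1S-only distal peak of the gene lay 480 kb upstream of promoter 1 (chr21:35528529-35529574). It was 1046 bp wide, in all 9 libraries, and its central 200 bp held 2 RUNX strings.

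RUNX2 had the most unequal split of the RUNX genes, with 22 peaks in MM.1S and 40 in RPMI8226. No reference peak lay at promoter 1, the MANE start, in either line. The nearest MM.1S peak was 17.5 kb away and the nearest RPMI8226 peak 23.4 kb away. Promoter 2, 94155 bp downstream, was open in both. In MM.1S a 2200 bp peak in all 9 libraries covered its start, and in RPMI8226 a 426 bp peak in all 5 libraries ended 76 bp short of it. A peak of support 3 beside that one was 278 bp wide.

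Past promoter 2 of RUNX2, MM.1S had 17 peaks, 14 of them shared, and RPMI8226 had 33, of which 14 were shared and 19 were not. Within the gene body, 18 distal RPMI8226 peaks and 2 distal MM.1S peaks had no partner. A series of 6 RPMI8226 peaks followed each other without a shared peak over 24.5 kb (chr6:45590241-45614772), with supports of 4, 5, 5, 5, 5 and 4. Beyond them came the widest RPMI8226-only peak of the gene, 654 bp and in every library, 309 kb downstream of promoter 1 (chr6:45637449-45638102). The widest MM.1S-only peak of the gene lay elsewhere, at 120 kb, and was 662 bp wide and in all 9 libraries (chr6:45448390-45449051). The widest shared distal RPMI8226 peak was intronic and lay next to the run, at 259 kb, with a width of 853 bp and a support of 5 (chr6:45586431-45587283). The MM.1S peak there was 613 bp wide with a support of 3, the lowest that enters the list. The centre of this peak held 3 RUNX strings. No shared distal RPMI8226 peak of these genes held more than 3 RUNX and ETS strings, and this was the widest with that number, so its central 200 bases are shown.
RUNX2 intron, plus strand, chr6:45586757-45586956: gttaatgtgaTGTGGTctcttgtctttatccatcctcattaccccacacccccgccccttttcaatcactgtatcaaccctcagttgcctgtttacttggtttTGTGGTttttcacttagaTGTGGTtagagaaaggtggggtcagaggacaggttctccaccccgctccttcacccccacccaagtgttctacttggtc

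RUNX3 had 14 peaks in MM.1S and 20 in RPMI8226, and 13 of the 14 MM.1S peaks were shared (92.9%, 68.5 to 98.7, against 64.6% of the list). Of the 20 RPMI8226 peaks, 13 were shared (65.0%, 43.3 to 81.9, against 62.0%) and 7 were not. The study itself lists RUNX3 among genes with several regions more accessible in TSW than in MONO cells of MM.1S. Its literature review also ties RUNX3 to drug resistance. The inclusion of RUNX3 is therefore not independent of these samples, and the reported gain cannot be examined with the pooled lists. Promoter 1 had a 749 bp peak in all 9 MM.1S libraries and a 429 bp peak in all 5 RPMI8226 libraries. Promoter 2, the MANE start 34734 bp downstream, had 3 peaks in each line. These had supports of 9, 9 and 7 in MM.1S and of 5, 5 and 5 in RPMI8226. The widest of them, just downstream of the start, measured 1273 bp in MM.1S and 1074 bp in RPMI8226.

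RUNX3 peaks were often 1 library short of full support, a feature picked out after the values had been seen. In MM.1S 6 of 14 had a support of 8 (42.9%), against 13.2% of the whole list, and in RPMI8226 8 of 20 had a support of 4 (40.0%), against 20.5%. All 6 of the MM.1S peaks were distal and shared, and 1 of them overlapped an RPMI8226 peak called in every library. Among them were peaks at 24.9 kb and 107 kb upstream of promoter 2. The one at 107 kb, 1093 bp wide in MM.1S and 844 bp with a support of 4 in RPMI8226 (chr1:25037108-25038200), was the widest shared distal peak of the gene in both lists. Which library lacked these peaks is not recorded, the shallow MONO library of MM.1S included, and the 1 MONO library of RPMI8226 cannot be told apart from the others. The single MM.1S-only peak, 17.2 kb upstream of promoter 2, was 368 bp wide with a support of 4.

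**Figure D3:**
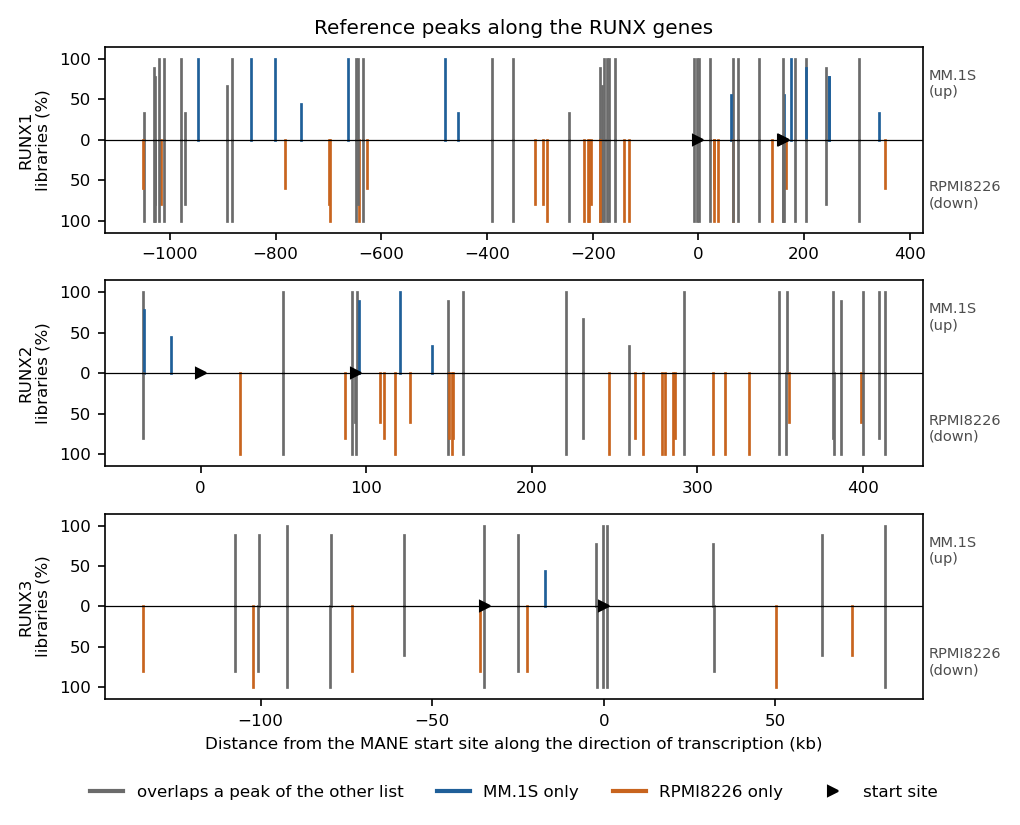
Peaks along RUNX1, RUNX2 and RUNX3, with distance from the MANE start on the x axis (kb, positive downstream) and the percentage of libraries with the peak on the y axis, MM.1S upward and RPMI8226 downward. Grey peaks overlap a peak of the other list and coloured peaks do not; RPMI8226-only peaks crowd the 3′ part of RUNX2, and most RUNX3 peaks of MM.1S stop at 8 of 9 libraries or fewer.

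CBFB had 24 peaks in MM.1S and 28 in RPMI8226, of which 21 and 22 were shared (87.5%, 69.0 to 95.7, and 78.6%, 60.5 to 89.8). Its only promoter lay under a 1512 bp peak in all 9 MM.1S libraries and an 891 bp peak in all 5 RPMI8226 libraries. The window is rich in other genes, and 18 of the MM.1S and 20 of the RPMI8226 peaks sat at their starts. Only 5 and 6 peaks were distal. The widest RPMI8226-only distal peak of all 10 genes lay here, 101 kb upstream of the start, where it overlapped the edge of the window (chr16:66928092-66929035). It was 944 bp wide, in all 5 libraries, and its centre, given here because of that width, held 1 AP-1 string.
CBFB upstream, plus strand, chr16:66928464-66928663: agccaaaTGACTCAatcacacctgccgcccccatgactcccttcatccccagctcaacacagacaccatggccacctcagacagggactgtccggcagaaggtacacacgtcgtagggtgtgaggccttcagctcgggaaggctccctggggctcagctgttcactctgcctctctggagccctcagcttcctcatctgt

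ETS1 had 21 peaks in MM.1S and 17 in RPMI8226. As at RUNX2, the upstream promoter, which is the MANE start, had no reference peak in either line. The nearest peak was 16.3 kb away in MM.1S and 4.21 kb away in RPMI8226, where it was an intronic 359 bp peak in all 5 libraries without an MM.1S partner (chr11:128582991-128583349). Promoter 2, 65248 bp downstream and CpG-rich, lay under a 940 bp peak in all 9 MM.1S libraries and a 648 bp peak in all 5 RPMI8226 libraries. The 2 widest shared distal peaks were the same regions in both lists. One lay 181 kb downstream of promoter 1, past the end of the gene, with 1109 bp in MM.1S and 815 bp in RPMI8226. The other lay 23.7 kb upstream, with 946 bp and 699 bp, and all had full support. Full support was less common elsewhere in the window. In all, 8 of 21 MM.1S peaks were in every library (38.1%, 20.8 to 59.1) and 10 of 17 RPMI8226 peaks were (58.8%, 36.0 to 78.4), against 52.0% and 64.1% of the lists.

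FLI1, the neighbour of ETS1, had 26 peaks in MM.1S and 19 in RPMI8226, with 14 and 15 shared. Its promoter 1 was open only in MM.1S. The peak there was 773 bp wide, began 315 bp downstream of the start and was called in 8 of 9 libraries, so that it was present in each culture condition. In RPMI8226 the nearest peak was 7.36 kb away. That was the peak of promoter 2, the MANE start, which was 480 bp wide with a support of 5, whereas in MM.1S the peak of promoter 2 spanned 2536 bp with a support of 9.

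Inside FLI1, 6 distal MM.1S peaks and 1 distal RPMI8226 peak had no partner. Of the 6, 4 were in all 9 libraries, the widest being 1128 bp, 53.5 kb downstream of promoter 2 (chr11:128747031-128748158). The RPMI8226 peak was 168 bp wide with a support of 3. The widest shared distal MM.1S peaks lay 137 kb downstream, beyond the gene, with 1328 bp against 180 bp in RPMI8226, and 31.6 kb downstream in an intron, with 1321 bp against 673 bp. Both had full support in each list.

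ELF1 had 10 peaks in MM.1S and 14 in RPMI8226. The annotated gene body begins 42.1 kb upstream of promoter 1, and the widest peak of each list lay at that end. It spanned 1995 bp with a support of 9 in MM.1S and 1247 bp with a support of 5 in RPMI8226. Both peaks were shared and were classed at another annotated start, not at an ELF1 promoter as defined here. Promoter 1, the MANE start, had a 443 bp and a 357 bp peak, each in every library, with 2 CpG in the upstream 250 bases. Promoter 2, 37091 bp downstream, had no MM.1S peak and 2 RPMI8226 peaks of support 3, 230 bp and 139 bp wide. The nearest MM.1S peak was 2.51 kb away, just outside the 2500 bp limit, and had a support of 8. A support of 3 is the weakest that enters the RPMI8226 list, and the peak nearer to the start, shown here in full as a promoter peak called in RPMI8226 alone, held 1 ETS string.
ELF1 promoter 2, plus strand, chr13:40982895-40983033: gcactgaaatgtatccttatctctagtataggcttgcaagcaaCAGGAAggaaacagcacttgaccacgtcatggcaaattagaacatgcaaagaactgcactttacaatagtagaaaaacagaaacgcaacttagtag

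ETV6 had 24 peaks in each list, and 13 of each were shared (54.2%, 35.1 to 72.1). The equal counts concealed different regions, with 13 in both lines, 11 in MM.1S alone and 11 in RPMI8226 alone. Its promoter had an 853 bp peak across the start in all 9 MM.1S libraries. In RPMI8226 the peak across the start was 163 bp wide with a support of 3, and a 636 bp peak just upstream had a support of 5. The widest MM.1S-only distal peak of all 10 genes lay beyond the 3′ end of the gene, 253 kb from the start (chr12:11901676-11902939), with 1264 bp and a support of 9. No string was found in its centre. The widest shared distal peak in both lists was intronic, 163 kb downstream (chr12:11812455-11813577), with 1123 bp and a support of 9 in MM.1S and 775 bp and a support of 5 in RPMI8226. Its centre in MM.1S held 1 RUNX and 3 ETS strings. No shared distal MM.1S peak of these genes held more than 4 such strings, and this was the widest with that number.
ETV6 3′ flank, MM.1S alone, plus strand, chr12:11902208-11902407: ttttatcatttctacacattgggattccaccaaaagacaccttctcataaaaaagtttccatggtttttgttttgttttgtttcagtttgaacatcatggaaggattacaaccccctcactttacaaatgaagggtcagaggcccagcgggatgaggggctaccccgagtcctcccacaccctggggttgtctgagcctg
ETV6 intron, shared, plus strand, chr12:11812916-11813115: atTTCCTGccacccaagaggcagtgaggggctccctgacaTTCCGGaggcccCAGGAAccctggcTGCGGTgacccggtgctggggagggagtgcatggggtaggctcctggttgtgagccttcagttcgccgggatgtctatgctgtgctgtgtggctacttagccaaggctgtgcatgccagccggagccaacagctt

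ETS2 had 12 peaks in MM.1S and 17 in RPMI8226, and 11 of each were shared. Promoter 1, the MANE start, lay under a 1232 bp peak with a support of 9 in MM.1S and a 990 bp peak with a support of 5 in RPMI8226. Promoter 2, 2165 bp further on, was open only through that same peak, and promoter 3, 3474 bp from promoter 1, had none within 2500 bp. All 12 MM.1S peaks had a support above 6. The widest shared distal peak lay 38.7 kb upstream in MM.1S (780 bp, support 9) and matched a 730 bp RPMI8226 peak with a support of 5.

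ERG was the only one of the 10 genes with no promoter peak, and its 4 promoters lacked one in both lines. It had 10 peaks in MM.1S and 7 in RPMI8226, all distal, and 5 regions in common. The nearest peaks to its promoters 1 and 2 were 17.6 to 18.9 kb away, and those to promoter 3 were 36.3 kb away in each line. For promoter 4, the MANE start, the distance was 19.4 kb in MM.1S and 123 kb in RPMI8226. Of 6 MM.1S peaks inside the gene, 5 had no RPMI8226 partner, and these formed a run over 92.2 kb (chr21:38386940-38479094), with supports of 9, 9, 3, 5 and 9. The only RPMI8226 peak inside the gene was the shared one 123 kb upstream of promoter 4, which had 376 bp and a support of 9 in MM.1S and 269 bp and a support of 5 in RPMI8226. Each of the 7 distal RPMI8226 peaks held an ETS string in its centre, as did 5 of the 10 MM.1S peaks, where the shares over all distal peaks were 28.6% and 27.6%. This count was set out after it had been seen, and 3 of the 7 RPMI8226 peaks also lie in the ETS2 window. The widest shared MM.1S peak, 142 kb downstream of promoter 4 and past the end of the gene, had 602 bp and a support of 9, against 185 bp and a support of 4 in RPMI8226, and its centre is shown.
ERG downstream, plus strand, chr21:38356194-38356393: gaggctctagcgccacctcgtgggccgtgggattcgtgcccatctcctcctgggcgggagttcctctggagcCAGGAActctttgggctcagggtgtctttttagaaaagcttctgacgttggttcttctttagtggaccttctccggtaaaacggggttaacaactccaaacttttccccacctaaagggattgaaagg

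**Figure D4:**
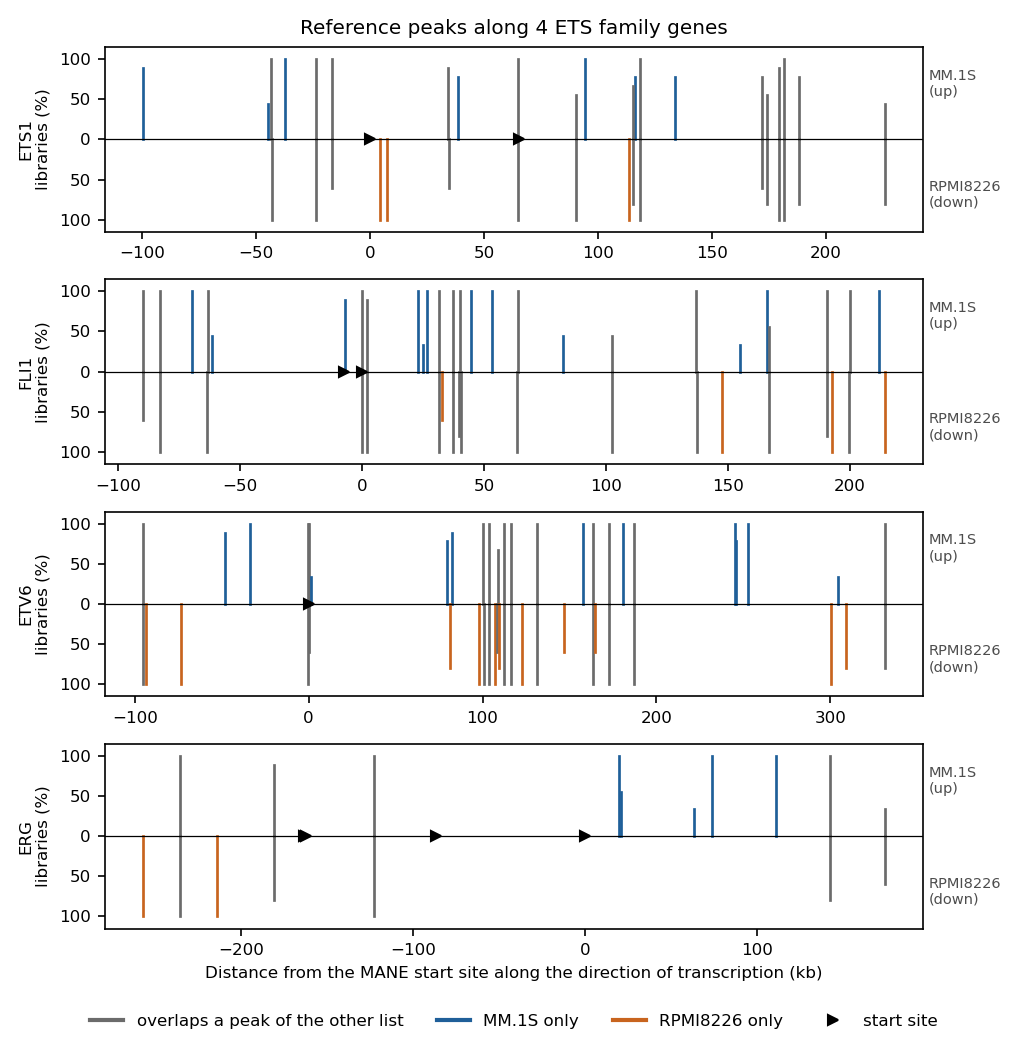
Peaks along ETS1, FLI1, ETV6 and ERG, drawn as for the RUNX genes (x axis, kb from the MANE start; y axis, percentage of libraries with the peak, MM.1S upward and RPMI8226 downward). MM.1S-only peaks follow both FLI1 promoters and lie downstream of the last ERG start, and none of the ERG starts carries a peak.

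Strings for the factors' own sites were counted in the central 200 bp of distal peaks. RUNX strings lay in 36 of 141 MM.1S peaks of these genes (25.5%, 19.1 to 33.3) and in 26.5% of all distal MM.1S peaks. In RPMI8226 they lay in 43 of 170 (25.3%, 19.4 to 32.3), against 26.9%. ETS strings lay in 38 of 141 MM.1S peaks (27.0%, 20.3 to 34.8, against 27.6%) and in 35 of 170 RPMI8226 peaks (20.6%, 15.2 to 27.3, against 28.6%). By gene group, RUNX strings lay in 24 of 70 distal MM.1S peaks near RUNX1, RUNX2, RUNX3 and CBFB (34.3%, 24.2 to 46.0) and in 12 of 71 near the ETS genes (16.9%, 9.94 to 27.3), whereas in RPMI8226 the shares were 25.2% and 25.4%. When whole peaks were searched, the MM.1S shares lay above those of the list, at 54.6% against 48.0% for RUNX strings (46.4 to 62.6) and 60.3% against 51.7% for ETS strings (52.0 to 68.0), and the RPMI8226 shares lay below, at 37.6% against 39.9% and 37.1% against 42.7%. A wider peak gives more bases to search. The median width of all peaks of these genes was 601 bp in MM.1S (536 bp over the list) and 383 bp in RPMI8226 (362 bp). The part of width in these shares was not tested. Among distal peaks called in every library, RUNX strings lay in 15 of 78 in MM.1S (19.2%, against 28.3% of such peaks in the list). In RPMI8226 they lay in 23 of 102 (22.5%, against 27.6%). ETS strings lay in 29.5% of these peaks in MM.1S (against 28.4%) and in 21.6% in RPMI8226 (against 28.3%). Each of these list shares for peaks called in every library lay within the 95% interval of the matching share for the 10 genes. AP-1 strings lay in 12 of 141 MM.1S peaks (8.51%, against 9.17%) and in 35 of 170 RPMI8226 peaks (20.6%, against 17.0%).

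Among RPMI8226-only distal peaks, 14 of 76 held a RUNX string (18.4%, 11.3 to 28.6), against 25.9% of all such peaks, 11 held an ETS string (14.5%, 8.28 to 24.1), against 27.9%, and 20 held an AP-1 string (26.3%, 17.7 to 37.2), against 21.8%. Among MM.1S-only distal peaks, 15 of 49 held a RUNX string (30.6%, 19.5 to 44.5, against 27.0%), 12 an ETS string (24.5%, 14.6 to 38.1, against 26.7%) and 2 an AP-1 string (4.08%, 1.13 to 13.7, against 5.65%). The median GC content of the central 200 bp of the distal peaks was 48.5% in MM.1S and 46.8% in RPMI8226, against 48.0% over either list.

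**Figure D5:**
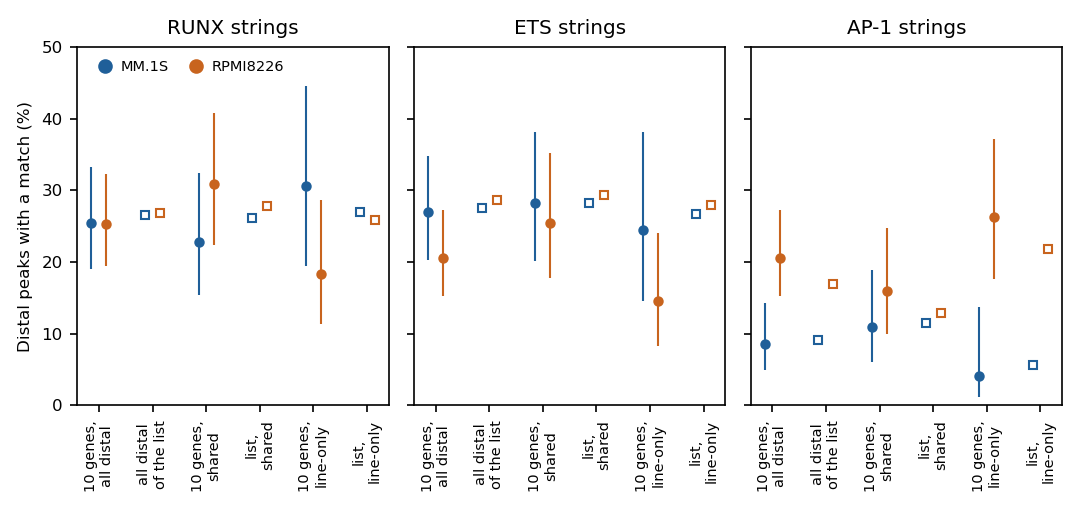
Percentage of distal peaks with a RUNX, ETS or AP-1 string in the central 200 bp (y axis), for the peaks of the 10 genes (filled circles) and of the whole list (open squares), over all, shared and line-only peaks (x axis), with 95% Wilson intervals. Circles lie near the squares for RUNX strings in MM.1S, at 25.5% against 26.5%, and below them for ETS strings in RPMI8226-only peaks, at 14.5% against 27.9%.

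A promoter peak was present at 19 of the 22 other ETS family genes in MM.1S and at 15 in RPMI8226. ETV3L, FEV and SPIC had none in either line. ETV1, ETV7, SPIB and SPDEF had one in MM.1S alone, in all 9 libraries for ETV1 and ETV7. Among 12 partners and cofactors of RUNX proteins, such as the TLE and CBFA2T corepressors, 12 of 12 genes had at least 1 open promoter in MM.1S and 10 in RPMI8226, although RUNX1T1, for example, had 1 of its 4 promoters open in MM.1S. RUNX1T1 and YAP1, a co-repressor and a co-activator, were the ones without a peak in RPMI8226, and both had one in all 9 MM.1S libraries. The genome-wide shares were the 72.5% and 66.7% given above.

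Marker genes were read the same way. At least 1 promoter was open at 10 of 10 plasma cell markers in MM.1S and at 9 in RPMI8226, where that of JCHAIN was not. Of 10 stromal markers, 6 had one in MM.1S and 4 in RPMI8226. COL1A1 and PDGFRB had one in every library of both lines, and PDGFRA and TWIST1 in every MM.1S library, whereas COL3A1, THY1, LUM and FAP had none. Of 6 endothelial markers, 2 and 1 had a promoter peak, in no case in every library, and of 6 T cell markers LCK alone had one in each line. The part of stromal DNA in the line-only peaks of the 10 genes was not tested.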

How the data were processed

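Chromatin accessibility was profiled by Omni-ATAC in 14 libraries, assigned to a line and condition by their titles. By the study's methods and the submitters' processing notes, the authors aligned reads to hg38 with Bowtie2, called peaks per library with MACS3, and kept peaks present in at least 3 libraries of a line. The 2 deposited lists give, per peak, a position and a support count, in a unit other than reads, which the authors did not normalize. No header names that number, and its reading as the count of libraries rests on its range, 3 to 9 and 3 to 5. Positions were read as BED intervals and are given 1-based. Tool versions, the joining of peaks across libraries and any shift of reads for the transposase are not given in the sources used here. The study gives a sequencing depth for each library, but the lists hold no reads per peak, so depth set no interval here.

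Genes came from GENCODE release 44 and sequences from hg38 (no bases from RefSeq tables were used). Peaks were shared with at least 1 bp of overlap. Distal peaks lay more than 2500 bp from every annotated start. Motif strings were sought on both strands in the central 200 bp, and promoter strings and CpG in the 250 bases before the gene's first exon at that start, moved upstream past any exon of the same gene; the planned sequences were centres of promoter peaks, and these spans took their place. Some sequences are not reported here. The genes named were all 10, every promoter of each, and of each list the 2 widest shared distal peaks and the widest line-only one as far as they added to the text. The 10 genes, the other lists and the strings were chosen with earlier results of these data known. Sharing, window and string counts were tested on simulated peaks with known answers. No test was made, since each line has 1 list. Python 3.11.15, numpy 2.4.6, scipy 1.17.1, pysam 0.24.0 and matplotlib 3.10.9 were used.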

Additional observations from a re-analysis of the deposited data

How the results depend on the processing

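Of 58 alternatives to the windows, the overlap, the promoters and the strings, 35 left a count within 1.5 times or a share within its 95% interval. The rest follow. With the gene bodies alone, 109 MM.1S and 135 RPMI8226 peaks remained, of which 64.2% and 56.3% were shared (64.6% and 62.0% over all peaks of the lists). The MM.1S share above that of its list was therefore not seen without the flanks. With peaks at least as wide as the list median, 121 and 127 remained, of which 77.7% and 78.7% were shared and 81.0% and 84.3% were in every library, where the lists gave 75.7% and 75.0%, and 78.6% and 86.1%. With peaks of every library alone, 124 and 158 remained. An overlap of at least 50% of both peaks gave 56.2% and 47.3% shared (51.8% and 47.2% over the lists), and distal RPMI8226 peaks alone 55.3%. Searching the whole peak gave, for MM.1S and RPMI8226, RUNX shares of 54.6% and 37.6% and ETS shares of 60.3% and 37.1% (48.0%, 39.9%, 51.7% and 42.7% over the lists), and 7-base strings gave 11.3%, 11.8%, 12.1% and 8.82% (11.8%, 11.8%, 12.5% and 13.6%). By construction these settings change the peaks counted, the bases searched or the string.

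Promoter counts of 14 in each line became 13 and 11 within 500 bp and 13 and 13 with peaks of every library alone, where FLI1 promoter 1 and ELF1 promoter 2 were lost. With the start sites of all transcripts, 20 of 46 promoters were open in MM.1S and 19 of 46 in RPMI8226. The counts stayed within 1.5 times, but the open share was lower than with 14 of 22. No paired analysis was possible because each line has 1 pooled list, and for the same reason no library could be left out. A missing reference peak may still have been called in 1 or 2 libraries, line-only peaks depend on the unequal number of libraries, and a support number carries no signal height.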

Other observations

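Among the peaks of the 10 genes, sharing between the lists was more common at full support than at a support of 3. Of 15 MM.1S peaks with a support of 3, 7 overlapped an RPMI8226 peak (46.7%), and of 124 with a support of 9, 99 did (79.8%). In between the order was uneven, with 25.0%, 50.0%, 83.3%, 47.1% and 76.0% at supports of 4, 5, 6, 7 and 8, which held 8, 8, 6, 17 and 25 peaks. In RPMI8226 the shares were 40.0% of 35 peaks with a support of 3, 52.1% of 48 with a support of 4 and 72.2% of 158 with a support of 5. The least and the best supported of these peaks had median widths of 299 bp and 674 bp in MM.1S and of 193 bp and 442 bp in RPMI8226. At full support 25 of the 124 MM.1S peaks had no partner, against 7072 of 37860 in the whole list. In RPMI8226, 44 of 158 had none, against 13278 of 51298. List shares at lower supports were not counted, so whether this order is particular to the 10 genes was not tested.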
